A study of Mus musculus with 10 samples.

Results

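NF-kB signaling and inflammatory cytokine genes, 10 in all, were followed across 10 subcutaneous mouse tumors. They are Nfkbia, Tnfaip3, Birc3, Relb, Nfkb2, Tnf, Il6, Cxcl1, Cxcl2 and Ptgs2, taken as a list of symbols from an expression table of 29890 genes, and all 10 were found there. The tumors grew from B2905-M4, a mouse melanoma line, in female C57BL/6 hosts (C57BL/6J in the design text) that were 7 to 8 weeks old at injection. By their labels, 5 tumors overexpress Adamts7, a secreted metalloproteinase, and the other 5 carry the vector, though 1 tumor of the first group goes against its label; no tumor received immunotherapy. Harvest was at day 35 (2 Adamts7 tumors), day 45 (3 of either group) and day 50 (2 vector tumors), and no source ties a day to a tumor, so harvest day and group cannot be told apart. The promoter of the construct, and whether each line was a clone, are not given in the sources used here. Levels are in TPM, the share of a library's transcripts after scaling for their length, and the read depth is unknown.

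NF-kB is a family of paired transcription factors that inhibitory IkB proteins hold in the cytoplasm. Signals from TNF, interleukin-1 or Toll-like receptors activate IkB kinase, IkB is degraded, and the dimers switch on cytokines, neutrophil-attracting chemokines and the inducible cyclooxygenase, together with their own inhibitors, the IkB-alpha gene Nfkbia and the deubiquitinase gene Tnfaip3. A slower, noncanonical branch runs through NF-kB-inducing kinase, the Nfkb2 product and RelB. In a tumor, both the cancer cells and the infiltrating leukocytes can use the pathway.

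The promoters are shown to describe these genes, and their part in the levels was not tested. The sequences are RefSeq's, of build GRCm38.p6, and 9 of the 10 genes have an entry; Relb has none. The 250 bases before each start site were searched on both strands for the NF-kB consensus (kB) motif, and 6 of the 9 genes held a match, against 4.46% of the 27025 genes in the same table. The list was drawn up around NF-kB, so this count describes its genes and tests nothing. Nfkbia, Tnfaip3, Nfkb2 and Cxcl1 held a match and peaked in vector tumors 3 and 5, and Ptgs2 did neither. Birc3 and Tnf peaked in these tumors without a match, and Il6 and Cxcl2 held a match without that pattern. Whether match and pattern are related was not tested. A match is a description of letters and not a measured binding site. The 130 bases before the start site follow for these 6 genes, read 5′ to 3′ on the gene's strand, with matches in capitals and overlapping matches merged.
Nfkbia, chr12:55492648-55492777, minus strand: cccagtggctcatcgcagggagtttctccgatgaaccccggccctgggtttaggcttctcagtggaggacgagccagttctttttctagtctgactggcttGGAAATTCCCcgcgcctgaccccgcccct
Tnfaip3, chr10:19015411-19015540, minus strand, the first of 2 start sites: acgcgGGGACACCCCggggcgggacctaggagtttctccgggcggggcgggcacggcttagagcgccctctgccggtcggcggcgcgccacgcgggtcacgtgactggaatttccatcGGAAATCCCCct
Nfkb2, chr19:46304607-46304736, plus strand, the first of 3 start sites: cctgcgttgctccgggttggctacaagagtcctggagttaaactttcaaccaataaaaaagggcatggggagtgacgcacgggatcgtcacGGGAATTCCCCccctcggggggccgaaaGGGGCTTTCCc
Il6, chr5:30012984-30013113, plus strand: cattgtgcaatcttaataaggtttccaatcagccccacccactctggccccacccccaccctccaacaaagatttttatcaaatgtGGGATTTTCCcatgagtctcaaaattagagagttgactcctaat
Cxcl1, chr5:90891115-90891244, plus strand: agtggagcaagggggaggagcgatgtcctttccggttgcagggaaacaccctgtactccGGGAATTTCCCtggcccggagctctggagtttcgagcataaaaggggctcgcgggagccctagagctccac
Cxcl2, chr5:90903769-90903898, plus strand: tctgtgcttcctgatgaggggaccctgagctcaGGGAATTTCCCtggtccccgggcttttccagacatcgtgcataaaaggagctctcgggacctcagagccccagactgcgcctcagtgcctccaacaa
Cxcl1 and Cxcl2, neighbouring chemokine genes on chromosome 5, carry the same letters at the match, on both strands. It begins 71 bases before the start in Cxcl1 and 97 bases before it in Cxcl2. In Nfkb2 overlapping matches begin 39 and 38 bases before the start, and another begins 11 bases before it. No match lay in these windows of Birc3, Tnf or Ptgs2, which says only that these letters are not in them.

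The tumors differed in ways that bear on every value below. Adamts7 itself reached 74.8 to 96.0 TPM in the first 4 tumors of its group but only 18.2 TPM in the one labelled Adamts7 5, while vector tumors spanned 6.49 to 28.3 TPM, so that 1 tumor goes against its label and each direction takes the label as given. Vector tumors 3 and 5 stood apart in marker genes. Pmel, a melanosome gene, had levels of 6.13 and 274 TPM there, beside 1107 to 8390 TPM elsewhere. The lineage factor genes were lower there too. Sox10 was at 269 and 311 TPM, beside 494 to 742 TPM elsewhere, and Mitf at 20.7 and 53.0 TPM, beside 118 to 285 TPM. T cell markers summed to 346 and 271 TPM in vector tumors 3 and 5 and to at most 52.4 TPM elsewhere. The 8 tested genes and the lists are therefore also given without these 2 tumors.

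None of the 10 genes differed between the groups at the threshold when all genes were tested (limma, Benjamini-Hochberg, 0.05). Of the 10, 8 had the mean of at least 1 TPM that testing required; Il6 and Cxcl2 were below it. Adjusted p-values of the 8 ran from 0.126 for Nfkbia to 0.916 for Ptgs2. At an unadjusted p under 0.05, 3 of the 8 were lower in Adamts7 tumors (Nfkbia, Birc3 and Cxcl1) and 0 higher, where 15.3% of all 15276 genes were lower and 4.86% higher, and at the adjusted threshold 0.196% of all genes were lower and 0.0262% higher. All 8 log2 fold changes were negative, with a median of -0.81, beside 60.2% negative and a median of -0.10 over all genes. Tnf and Cxcl1 reached the filter only through vector tumors 3 and 5. Counts and medians of the 8 that include these genes therefore describe those tumors in part. Without vector tumors 3 and 5 the median of the 8 was -0.03, with 4 of 8 negative, beside -0.10 and 64.5% negative over all genes. The labels number the tumors without tying each to a mouse, so the p-values measure only the spread between these tumors.

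**Figure D1:**
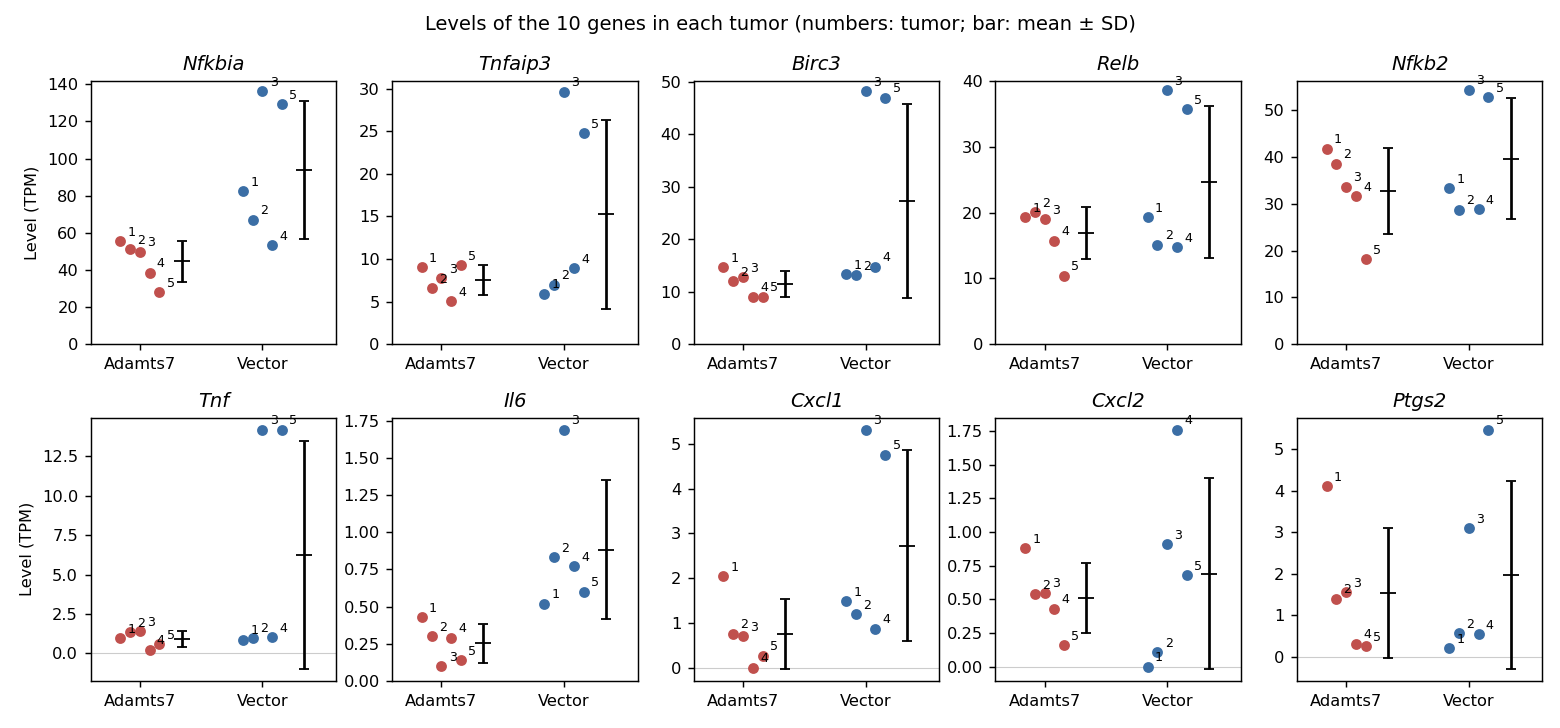
Level of each gene in TPM (vertical axis, linear, from 0; the axis extends below 0 only for error bars) in the Adamts7 tumors (red) and the vector tumors (blue). Numbers give the tumor, and the black bar gives the mean ± SD of 5 tumors; in 7 panels vector tumors 3 and 5 are the highest pair.

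Vector tumors 3 and 5 held the highest pair of values for 7 of the 8 tested genes, all but Ptgs2. The same held for 24.1% of all genes tested, and these tumors were first noticed for immune and pigment genes of the same table, so the count describes them and tests nothing. The highest single value of 8 of the 10 genes was in vector tumor 3, and the lowest of 4 was in the tumor labelled Adamts7 5.

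Among the inhibitors, Nfkbia, which encodes IkB-alpha, was the most abundant of the 10 in every tumor. In order of tumor number, the Adamts7 group read 55.5, 51.3, 49.8, 38.6 and 28.0 TPM and the vector group 82.3, 67.1, 136, 53.4 and 129 TPM, an order kept for all genes below. The groups overlapped only where vector tumor 4 lay below Adamts7 tumor 1. The means were 44.6 ± 11.2 and 93.7 ± 37.3 TPM (SD, n = 5 each), with a log2 fold change of -1.0 (SE 0.28; limma adjusted p = 0.126). Without vector tumors 3 and 5 it was -0.61 (limma adjusted p = 0.340), the largest remaining negative value of the 8.

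Tnfaip3 encodes the deubiquitinase that ends NF-kB signaling downstream of the TNF receptor. Its levels were 9.04, 6.54, 7.73, 5.04 and 9.28 TPM in Adamts7 tumors and 5.94, 6.98, 29.6, 8.95 and 24.7 TPM in vector tumors. Vector tumors 1, 2 and 4 lay inside the range of the Adamts7 group, and only 3 and 5 were above it. The log2 fold change was -0.68 (SE 0.42; limma adjusted p = 0.360) and turned to 0.03 without vector tumors 3 and 5.

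Birc3 encodes an inhibitor of apoptosis protein and ubiquitin ligase that acts at the TNF receptor and restrains NF-kB-inducing kinase. It lay at 14.7, 12.02, 12.8, 9.05 and 9.01 TPM in Adamts7 tumors, and at 13.35, 13.2, 48.1, 14.7 and 46.95 TPM in vector tumors. All 8 tumors other than vector 3 and 5 thus fell between 9.01 and 14.7 TPM, and these 2 stood well above them. The log2 fold change was -0.95 (SE 0.39; limma adjusted p = 0.220), and -0.26 without them.

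The noncanonical factors varied least. Relb was at 19.3, 20.1, 19.0, 15.8 and 10.4 TPM in Adamts7 tumors against 19.3, 15.2, 38.6, 14.7 and 35.7 TPM in vector tumors. Nfkb2, which encodes the precursor of its partner, was at 41.8, 38.6, 33.6, 31.7 and 18.1 TPM against 33.4, 28.7, 54.4, 28.9 and 52.8 TPM. For both genes the first 3 Adamts7 tumors were as high as or higher than vector tumors 2 and 4, and the tumor labelled Adamts7 5 was the lowest of all 10. The log2 fold changes were -0.44 (SE 0.30) for Relb and -0.26 (SE 0.26) for Nfkb2, with limma adjusted p-values of 0.406 and 0.563, and both turned positive without vector tumors 3 and 5 (0.02 and 0.06). From the lowest to the highest tumor, Nfkb2 spanned 3.00-fold and Relb 3.70-fold, against 56.8-fold for Tnf.

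In each tumor the order of these regulators could be read on the per-length scale. Nfkb2 was second to Nfkbia in all 10 tumors, and Relb was above Tnfaip3 in all 10. Relb exceeded Birc3 in 5 of 5 Adamts7 tumors and in 2 of 5 vector tumors, so these neighbours did not keep one order. Birc3 exceeded Tnfaip3 in 9 of 10, the exception being the tumor labelled Adamts7 5.

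Tnf, the cytokine that both activates the pathway and is induced by it, had the widest span of the 8 genes that no tumor lists at 0. It was at 0.97, 1.36, 1.41, 0.25 and 0.58 TPM in Adamts7 tumors and at 0.86, 1.01, 14.2, 1.04 and 14.2 TPM in vector tumors. Vector tumors 1, 2 and 4 lay within the Adamts7 range, and only vector 3 and 5 were above it. The means were 0.914 ± 0.50 and 6.26 ± 7.24 TPM (SD, n = 5 each). The log2 fold change was -1.26 (SE 0.66; limma adjusted p = 0.300) and -0.08 without them. Tnf passed the filter through vector tumors 3 and 5, as did Cxcl1, so both had to be higher there.

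Il6, a cytokine gene with NF-kB and C/EBP control, was the only one of the 10 whose groups did not overlap. It was at 0.43, 0.30, 0.10, 0.29 and 0.14 TPM in Adamts7 tumors and at 0.52, 0.83, 1.69, 0.77 and 0.60 TPM in vector tumors. Vector tumor 5 was among the lower vector tumors here, unlike for the other cytokine genes. Groups that do not overlap, with Adamts7 lower, were found for 2.38% of all 29890 listed genes and 3.78% of the tested ones. In the fit without a filter the log2 fold change was -0.56 (SE 0.16; limma adjusted p = 0.202), on a log2(TPM + 1) scale that compresses such low levels.

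The chemokines Cxcl1 and Cxcl2 bind CXCR2 and draw neutrophils. Cxcl1 was at 2.04, 0.76, 0.70, 0 and 0.27 TPM in Adamts7 tumors and 1.49, 1.19, 5.32, 0.87 and 4.76 TPM in vector tumors, with a log2 fold change of -1.0 (SE 0.42; limma adjusted p = 0.225), and -0.41 without vector tumors 3 and 5. Adamts7 tumor 1 lay above vector tumors 1, 2 and 4. Cxcl2, whose promoter holds the same matched letters, read 0.88, 0.54, 0.55, 0.43 and 0.16 against 0, 0.11, 0.91, 1.76 and 0.68 TPM. Its highest value was in vector tumor 4 and it was listed at 0 in vector tumor 1, and the unfiltered fit gave a log2 fold change of -0.08 (SE 0.27; limma adjusted p = 0.889).

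Ptgs2, the inducible cyclooxygenase of prostaglandin synthesis, followed neither the groups nor the pair of vector tumors alone. It was at 4.11, 1.40, 1.56, 0.31 and 0.26 TPM in Adamts7 tumors and at 0.21, 0.57, 3.09, 0.54 and 5.47 TPM in vector tumors. Adamts7 tumor 1 was second only to vector tumor 5. The log2 fold change was -0.12 (SE 0.54; limma adjusted p = 0.916) and 0.62 without vector tumors 3 and 5, and it also turned positive under quantile normalization (0.14).

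The authors' deposited table, from a count-based test with DESeq2 named in the processing notes, calls 2 of the 10 genes lower and 0 higher. There Nfkbia had a log2 fold change of -0.95 (SE 0.30, adjusted p = 0.0238) and Tnf one of -2.65 (SE 0.83, adjusted p = 0.0246). Over all genes with an adjusted p in the authors' deposited table, 18796 in number, 5.48% were lower and 2.48% higher. The next members in the authors' deposited table were Birc3 (-1.12, adjusted p = 0.0692), Il6 (-1.81, adjusted p = 0.0863) and Cxcl1 (-1.81, adjusted p = 0.168). The deposited values of Relb (-0.42) and Nfkb2 (-0.16) were close to those of the TPM fit, whereas for Tnf, Il6 and Cxcl1, all of low level, the authors' deposited table gave the larger changes. Cxcl2 and Ptgs2 were low as well, with deposited values of -0.12 and -0.30 beside -0.08 and -0.12 in the TPM fits. Tnf and Cxcl1 moved with the pseudocount: at 0.1 TPM in place of 1 TPM, the log2 fold change was -1.76 for Tnf and -1.98 for Cxcl1. That of Ptgs2 stayed at -0.12. Both sources rest on the same tumors, and no deposited fit leaves out vector tumors 3 and 5 here.

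**Figure D2:**
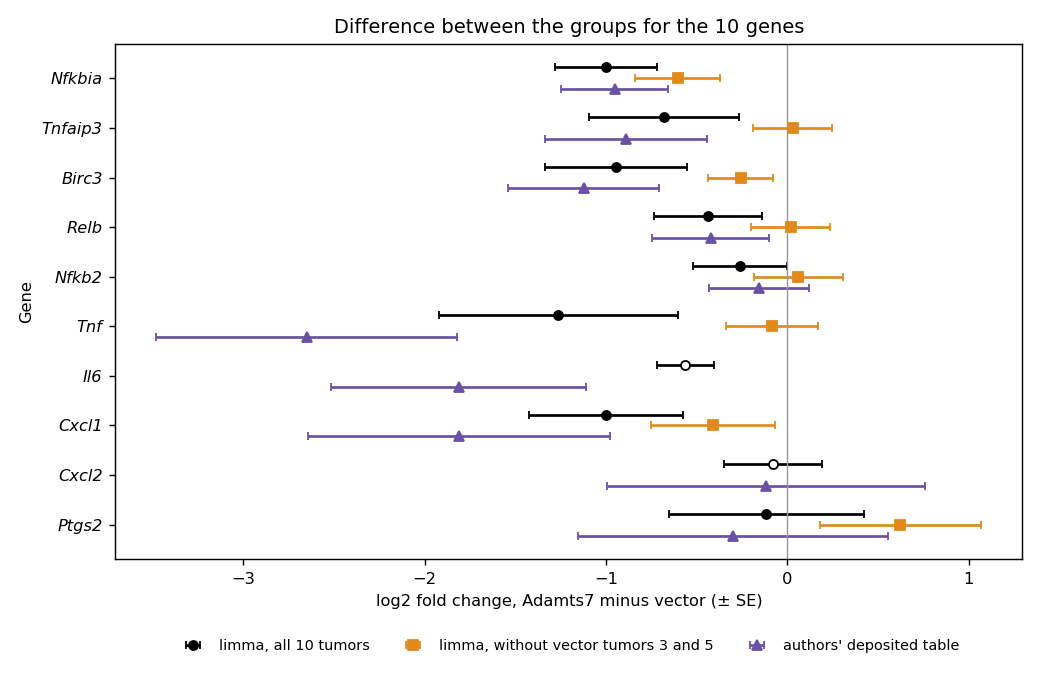
Log2 fold change, Adamts7 minus vector, with its SE for each gene, from limma on all 10 tumors (black circles; open for Il6 and Cxcl2, from the fit without a filter), from limma without vector tumors 3 and 5 (orange squares; none for Il6 and Cxcl2) and from the authors' deposited table (purple triangles). Without vector tumors 3 and 5, 4 of the 8 tested genes lie above 0, and Tnf moves from -1.26 to -0.08.

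Other pathway genes were read from 11 lists by role, and no list held a gene past the limma threshold in either direction, though each of the 10 genes is also counted in the list of its role. Nfkbid and Osm, of the IkB and interleukin-6 lists, and among the markers Flt3, Xcr1, Clec9a, Cd79a and S100a8 reached the filter only through vector tumors 3 and 5, so counts and medians that include them describe those tumors. Of the 5 NF-kB subunits 4 had negative log2 fold changes (median -0.42), and without vector tumors 3 and 5 the median turned to 0.02, with 2 of 5 negative. Nfkb1, the precursor of the canonical partner, was at 30.4 to 48.6 TPM in Adamts7 tumors and 42.9 to 89.3 TPM in vector tumors (-0.72; limma adjusted p = 0.135). Rel was at 3.31 ± 0.675 against 5.02 ± 2.22 TPM (SD, n = 5 each). Rela, which encodes the main activating subunit and was looked at after its values were seen, lay between 75.0 and 101 TPM in Adamts7 tumors and between 64.2 and 92.4 TPM in vector tumors, lowest in vector tumor 5.

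Among the IkB inhibitors, of 6 tested, 5 were negative with a median of -0.99. Of the 6, 5 were lower at an unadjusted limma p under 0.05, beside 15.3% of all genes tested. Without vector tumors 3 and 5 the median was -0.28, with 6 of 6 negative. Nfkbiz, an atypical nuclear IkB protein that assists cytokine genes such as Il6, was at 17.5, 10.5, 14.6, 9.75 and 16.3 TPM in Adamts7 tumors and at 27.8, 22.2, 29.2, 31.4 and 30.4 TPM in vector tumors. Its groups did not overlap, nor did those of Tax1bp1, Sharpin, Osmr, Lifr and Irf1 below. Adamts7 was lower without overlap in 3.78% of all genes tested. The highest vector tumor for Nfkbiz was 4, with vector tumors 1 and 2 below 3 and 5. The log2 fold change was -1.01 (SE 0.18; limma adjusted p = 0.0606) with all tumors and -0.95 (limma adjusted p = 0.132) without vector tumors 3 and 5. The authors' deposited table calls it lower (-0.93, adjusted p = 0.000123), along with Nfkbia and Nfkbid, 3 of 6, beside 5.48% of all genes there. Bcl3, another nuclear IkB protein, was at 12.8 ± 3.22 against 21.1 ± 7.87 TPM (SD, n = 5 each).

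The kinase list, which holds the IkB kinase subunits, had a median of -0.10 over 11 genes, the value of all genes, and the ubiquitin-editing list a median of -0.26 over 11. Without vector tumors 3 and 5 these medians were -0.04 and -0.08. Ikbke, a noncanonical IkB kinase, was at 12.7 ± 3.40 against 24.6 ± 12.5 TPM and Map3k14, which encodes NF-kB-inducing kinase, at 3.51 ± 1.28 against 6.46 ± 3.09 TPM. Tab1, an adaptor of the kinase TAK1, was at 25.4 ± 2.95 against 21.8 ± 2.17 TPM. In the ubiquitin list Tax1bp1, a partner of the Tnfaip3 product, was at 90.6 ± 10.7 against 118 ± 6.37 TPM, Sharpin, of the linear ubiquitin ligase complex, at 46.3 ± 6.63 against 67.2 ± 11.3 TPM, and Tnip2 at 16.5 ± 4.22 against 22.4 ± 5.18 TPM (SD, n = 5 each). The authors' deposited table calls 0 genes of these lists and 0 of the subunits.

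The TRAF and inhibitor of apoptosis adaptors had a median of -0.24 over 9 genes (-0.11 without vector tumors 3 and 5), and the 3 named for their p-values (Traf1, Birc3 and Birc2) peaked in vector tumors 3 and 5. Traf1, an NF-kB-induced adaptor, was at 11.1, 4.27, 4.90, 1.23 and 1.65 TPM in Adamts7 tumors and at 6.22, 6.07, 42.5, 6.51 and 37.6 TPM in vector tumors. Adamts7 tumor 1 exceeded vector tumors 1, 2 and 4. The limma log2 fold change was -1.64 (adjusted p = 0.210), and -0.64 without vector tumors 3 and 5, while the authors' deposited table calls it lower (adjusted p = 0.0440). Birc2, the paralog of Birc3, was at 14.3 ± 1.75 against 23.7 ± 10.7 TPM (SD, n = 5 each).

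Ligands that activate the pathway had a median of -1.20 over 7 tested of 10. Of these 7, Tnf, Lta and Tnfsf14 reached the filter only through vector tumors 3 and 5, so the median, which is the value of Lta, and the negative sign of all 7 support nothing. Ltb, a lymphotoxin subunit and noncanonical ligand, was at 8.89, 7.55, 5.79, 4.82 and 1.74 TPM in Adamts7 tumors and at 7.89, 11.7, 83.7, 8.03 and 56.9 TPM in vector tumors. Tnfsf13b, the B cell activating factor gene, was at 2.00 ± 1.14 against 9.01 ± 6.31 TPM and Lta at 0.276 ± 0.144 against 3.00 ± 3.39 TPM (SD, n = 5 each). Limma adjusted p-values of these 3 were 0.187, 0.118 and 0.238. Of the 10 ligands, 7 are called lower in the authors' deposited table, beside 5.48% of all genes there. Among them are Ltb (-2.42), Tnfsf13b (-2.09) and Lta (-3.35). Each of the 7 called was highest in vector tumors 3 and 5, and Il1a, Cd40lg and Tnfsf11 of these averaged below 1 TPM. This count therefore describes those tumors and tests nothing. The median of the 7 tested ligands was -0.27 without vector tumors 3 and 5.

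Receptors and their proximal signaling genes had a median of -0.43, with 15 of 17 negative, and of -0.24, with 14 of 17 negative, without vector tumors 3 and 5. Cd40, a noncanonical receptor of antigen-presenting cells, was at 4.04 ± 2.51 against 21.6 ± 20.7 TPM (SD, n = 5 each), and was the 1 gene of the list that the authors' deposited table calls (adjusted p = 0.0109). Irak2, a kinase of interleukin-1 and Toll-like receptor signaling, was at 12.5 ± 5.87 against 21.4 ± 2.04 TPM. Il1rap, the shared chain of the interleukin-1 receptor, had another pattern. It was at 40.7, 42.8, 40.2, 37.8 and 44.0 TPM in Adamts7 tumors and at 103, 69.8, 35.8, 114 and 45.4 TPM in vector tumors, so that vector tumors 3 and 5 resembled the Adamts7 group. Its limma log2 fold change was -0.69 (adjusted p = 0.222), and -1.17 (adjusted p = 0.0343) without those 2 tumors. They held the lowest vector values of Il1rap, so leaving them out had to widen the difference, and the smaller p-value supports nothing. Over all genes, 28 of 15276 were called in that fit.

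The interleukin-6 family list had a median of -0.65 over 8 tested genes and of -0.12 without vector tumors 3 and 5, with its receptor genes Osmr at 3.82 ± 1.70 against 8.21 ± 1.41 TPM and Lifr at 12.8 ± 5.77 against 29.8 ± 10.1 TPM. Socs3, the feedback inhibitor that this family induces, was at 19.8 ± 7.38 against 32.8 ± 16.01 TPM. The groups of Osmr and of Lifr did not overlap, as in 3.78% of all genes tested with Adamts7 lower. Osmr is called lower in the authors' deposited table (adjusted p = 0.0174) and had a limma adjusted p of 0.105. In the prostaglandin list, with a median of -0.39 over 10 tested genes and of -0.11 without vector tumors 3 and 5, Hpgd, the enzyme that inactivates prostaglandins, was at 0.438 ± 0.219 against 1.91 ± 0.852 TPM (limma adjusted p = 0.113; called lower in the authors' deposited table, adjusted p = 0.00198). Hpgd, too, reached the filter only through vector tumors 3 and 5. Pla2g4a, which releases arachidonic acid, was at 12.8 ± 4.94 against 21.0 ± 4.82 TPM, and the receptor gene Ptger4 at 1.93 ± 0.923 against 6.42 ± 5.92 TPM (SD, n = 5 each).

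Further NF-kB targets had a median of -0.82 over 17 tested of 21 genes, with 15 negative, and of -0.22 without vector tumors 3 and 5. The adhesion genes Vcam1 and Icam1 were at 9.71 ± 6.21 against 42.5 ± 34.3 TPM and at 8.35 ± 4.55 against 29.3 ± 23.6 TPM. Irf1, which interferon-gamma also induces, was at 47.25 ± 12.01 against 167 ± 97.3 TPM (SD, n = 5 each), with a log2 fold change of -1.64 (SE 0.36; limma adjusted p = 0.0840), and -1.06 without vector tumors 3 and 5. The authors' deposited table calls 6 of 19 lower in this list, beside 5.48% of all genes there.

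**Figure D3:**
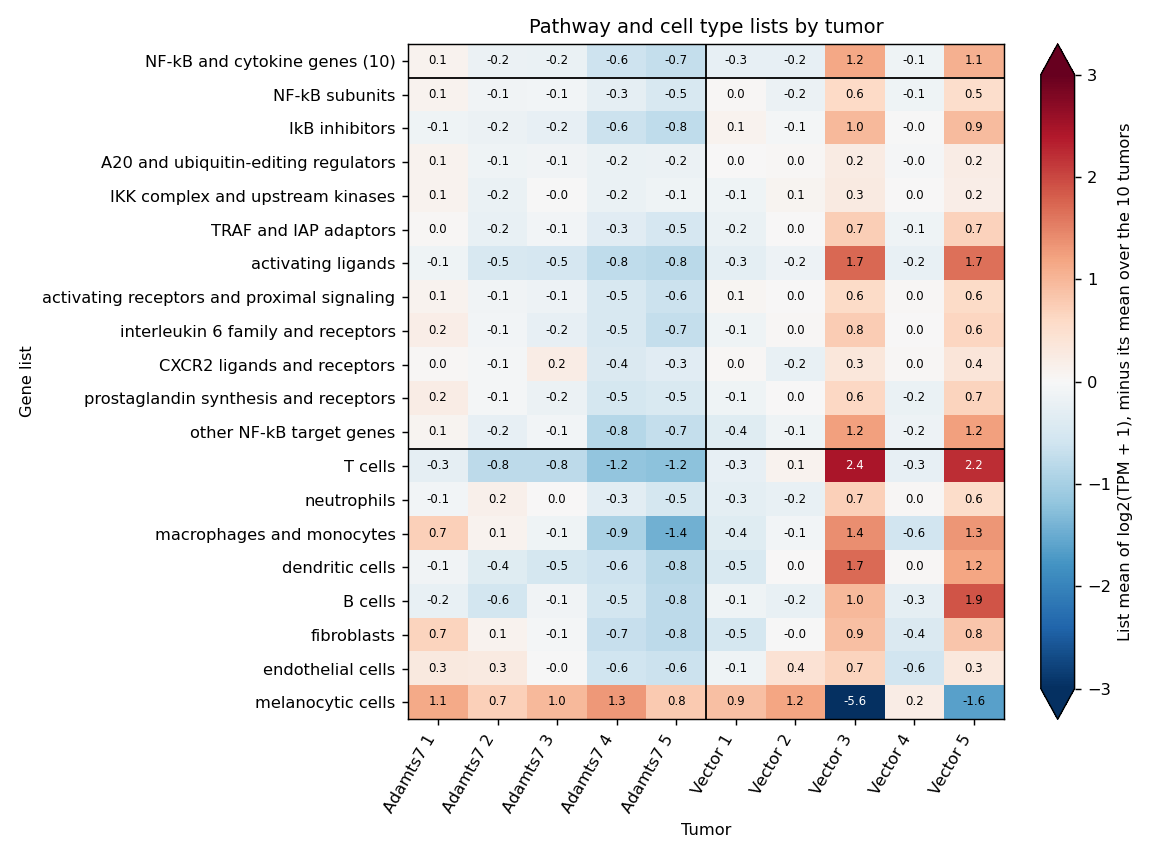
Mean of log2(TPM + 1) over the genes of each list, minus the mean of that list over the 10 tumors, for each tumor (columns; black line between Adamts7 and vector tumors) and list (rows; the 10 genes on top, then pathway lists, then cell type markers). Colors stop at 3 in either direction, and the number in each field gives the value; vector tumors 3 and 5 are red in every row but the melanocytic one.

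All 8 T cell markers had negative log2 fold changes, 0 past the limma threshold, and their summed level ran from 16.7 to 39.7 TPM with Adamts7 and from 38.9 to 346 TPM with vector, with no marker at 0. The authors' deposited table calls 7 of the 8 lower, and it calls 4 of 8 dendritic, 3 of 3 B cell and 1 of 10 macrophage markers lower. Over all genes there, 5.48% were lower and 2.48% higher. The T cell median was -1.67, and -0.61 without vector tumors 3 and 5. Cd3g, of the T cell receptor complex, and Trac, a receptor constant region, reached 88.5 and 57.2 TPM in vector tumor 3. Macrophage and monocyte markers summed to 425 to 2047 TPM and 823 to 3370 TPM, with 9 of 10 negative (4 of 10, and a median of 0.04 in place of -0.71, without vector tumors 3 and 5) and C1qa and C1qb, complement genes of macrophages, the most abundant. Dendritic cell markers, led by Itgax and Batf3, summed to 15.8 to 38.8 and 29.6 to 168 TPM (8 of 8 negative, with a median of -0.99, and -0.42 without those tumors), and B cell markers, led by Cd79b and Cd79a, to 1.13 to 4.62 and 3.56 to 32.5 TPM (2 of 2 tested negative, also without those tumors), with Ms4a1 at 0 in 4 tumors. The part of these cells in the levels of the 10 genes was not tested, and in bulk tumors fewer cells of a type and less RNA per cell cannot be told apart.

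Of 7 neutrophil markers found, 2 reached a mean of 1 TPM. Their sum was 0.85 to 7.49 TPM in Adamts7 tumors and 2.77 to 23.0 TPM in vector tumors, and Cxcr2, the receptor for Cxcl1 and Cxcl2, was listed at 0 in 7 of 10 tumors. Retnlg was at 0 in 6, S100a9 in 3, and S100a8, Mmp8 and Cd177 in 2 each; Csf3r, also expressed by monocytes, reached 15.4 and 14.3 TPM in vector tumors 3 and 5. Melanocytic markers, led by Dct and Pmel, went the other way, summing to between 12470 and 22967 TPM with Adamts7 and between 312 and 16291 TPM with vector, and 7 of 7 log2 fold changes positive. The median was 2.13 with vector tumors 3 and 5 and -0.07, with 4 of 7 negative, without them. Pmel (1.31), Dct (0.49) and Tyr (0.42) stayed positive without them. These tumors were first noticed in part for pigment genes, so a shift of this median on leaving them out was built in. Fibroblast markers, led by Col1a1 and Col1a2, summed to 213 to 1097 against 283 to 822 TPM, and endothelial markers, led by Pecam1 and Cdh5, to 43.0 to 95.6 against 49.5 to 112 TPM. Their medians were -0.13 (4 of 7 negative) and -0.23 (5 of 6 negative), and without vector tumors 3 and 5 they were 0.19 and -0.10. Within the fibroblast list, Dcn (-1.24) and Lum (-1.21) peaked in vector tumors 3 and 5, while Fap was at 0.64. The endothelial genes Tek (-0.65) and Emcn (-0.81) were lower at an unadjusted limma p under 0.05, as were 15.3% of all genes tested. Immediate early and heat shock genes, which rise during slow tissue handling, summed to 290 to 451 TPM against 321 to 388 TPM, and their part was not tested either.

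The plot of Tnf against marker levels shows each tumor. In Adamts7 tumor 1 the macrophage and monocyte list mean was 6.70 log2(TPM + 1), above vector tumors 1, 2 and 4 (5.61, 5.90 and 5.42) and nearest to vector tumors 3 and 5 (7.39 and 7.31), and Tnf was at 0.97 TPM there. The monocyte genes of the list were lower in Adamts7 tumor 1 than in vector tumors 3 and 5, with Ccr2 at 19.75 TPM against 67.7 and 84.1 TPM and Ly6c2 at 58.5 TPM against 167 and 162 TPM. Cd68 was higher in Adamts7 tumor 1, at 378 TPM against 162 and 158 TPM. Mrc1, at 42.1 TPM, lay between the 54.8 and 40.4 TPM of vector tumors 3 and 5. The remaining markers of the list were lower in Adamts7 tumor 1. The T cell list mean of Adamts7 tumor 1 was 2.46, beside 5.17 and 4.94 in vector tumors 3 and 5. Ptgs2 was at 4.11 TPM in Adamts7 tumor 1, between the 3.09 and 5.47 TPM of vector tumors 3 and 5. What these cells add to Tnf was not tested, and no correlation is given, because the 10 tumors fall into separate sets.

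**Figure D4:**
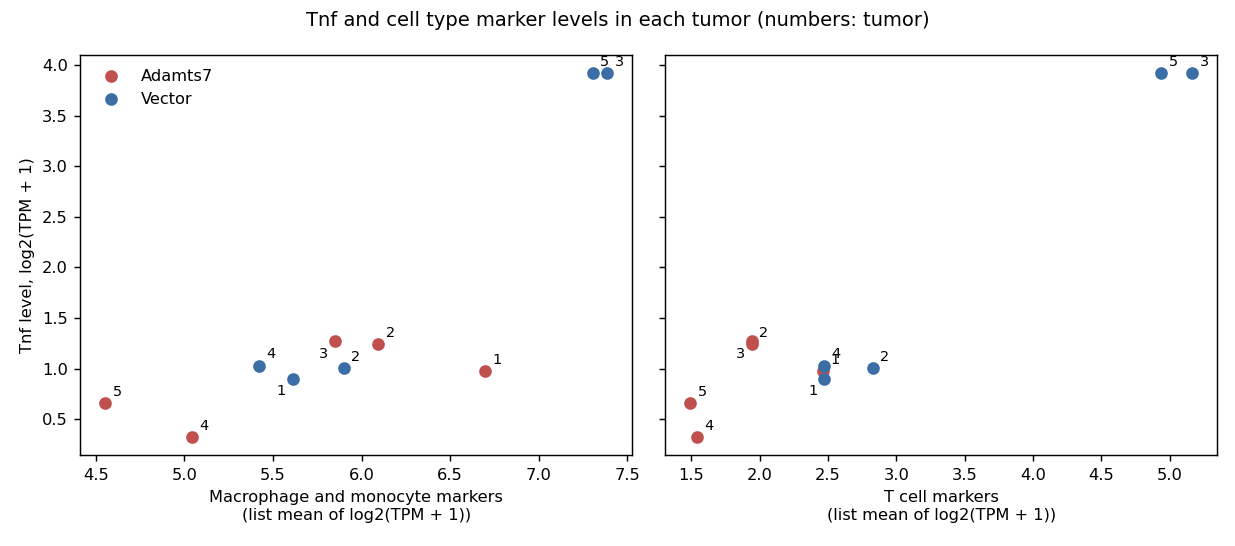
Tnf level as log2(TPM + 1) (vertical axis) against the mean of log2(TPM + 1) over 10 macrophage and monocyte markers (left) and 8 T cell markers (right) in each tumor, with Adamts7 tumors in red, vector tumors in blue and the tumor number beside each point. Adamts7 tumor 1 is nearest to vector tumors 3 and 5 in macrophage markers and has a Tnf level within that of the other 7 tumors.

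The genes most like the 8 tested members were found by the root mean squared difference between a gene's standardized profile over the 10 tumors and the mean standardized profile of the 8. The 5 nearest of the other tested genes were Cmtm6 (0.111), which stabilizes the PD-L1 protein, Mmp25 (0.114), a leukocyte membrane metalloproteinase, Aoah (0.116), a lipase that inactivates endotoxin, Vav1 (0.124), a guanine nucleotide exchange factor of blood cells, and Aldh1b1 (0.130), a mitochondrial aldehyde dehydrogenase. Of the members Birc3 was nearest to their mean profile (0.196) and Ptgs2 farthest (0.521). Vector tumors 3 and 5 held 52.9 and 53.1 TPM of Cmtm6, where the rest spanned 26.5 to 37.6 TPM, and 39.05 and 37.4 TPM of Vav1, where the rest spanned 6.43 to 15.7 TPM. All of these profiles share the libraries and their scaling.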

How the data were processed

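Bulk poly(A) RNA from 10 tumors was sequenced, 1 library a tumor, with the group taken from each title. The authors deposited log2(TPM + 1) values per gene symbol; RSEM and build mm39 are named in the submitters' processing notes. Values raised back to TPM summed to 995286 to 998019 per tumor, and TPM keeps no depth. The authors' deposited comparison table, for which the submitters' processing notes name DESeq2, gives per gene the log2 fold change and standard error, the score of the test, raw and adjusted p-values and the average signal (normalized counts); 28805 of its 30040 identifiers were paired with symbols. The deposited receptor repertoire table was not used.

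Testing was limited to genes averaging 1 TPM or more and used limma 3.58.1 (R 4.3.3) on log2(TPM + 1), pseudocount 1, with a trended prior variance, no term but group, and Benjamini-Hochberg adjustment at 0.05. The fit was tested on simulated data. Python 3.11.15 and pandas 2.3.3 were used elsewhere. The members, lists and tests were chosen with earlier results of these data known. Of each pathway list the 3 genes with the smallest p are named, of each marker list the 2 most abundant, and the 5 genes nearest in pattern; other genes named were chosen after their values were seen. Alternatives covered pseudocounts, filters, scalings, variance models, tumor weights, a replicate block, omitted tumors and the 100 possible day 45 sets. A marker gene is not reported here, and its list was summed without it.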

Additional observations from a re-analysis of the deposited data

How the results depend on the processing

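No member was called under any alternative run (limma, 0 throughout). The median of the tested members was negative in every fit of the 10 tumors or of those left by omissions, but its size was not kept. With 1 tumor left out it ran from -0.98 to -0.53. Without vector tumors 3 and 5 it was -0.03, beside -0.10 over all genes. Once the tumor labelled Adamts7 5 was omitted too, it was again -0.03, beside -0.08 over all genes. With tumor weights it was -0.29, and these weights moved Tnf from -1.26 to -0.34 and Cxcl1 to -0.54. The median turned positive, at 0.14, in 1 of the 100 ways in which 3 tumors of either group could be those of day 45. In those choices the highest values were also positive for Tnfaip3 (0.24), Relb (0.24), Nfkb2 (0.31), Tnf (0.185), Cxcl2 (0.42) and Ptgs2 (1.14), while Nfkbia, Birc3, Il6 and Cxcl1 were negative in all 100. For Il6 this was fixed in advance, since its groups did not overlap, and Cxcl1 passed the filter only through vector tumors 3 and 5. Without vector tumors 3 and 5 the log2 fold changes of Tnfaip3, Relb, Nfkb2 and Ptgs2 were 0.030, 0.018, 0.059 and 0.62; once the tumor labelled Adamts7 5 was omitted too, Relb, Nfkb2 and Ptgs2 were at 0.17, 0.25 and 0.82. Tumor weights gave 0.023, 0.10 and 0.52 for these 3, and quantile normalization, which moved the median of all genes from -0.10 to 0.04, gave 0.14 for Ptgs2. With 1 tumor left out, Ptgs2 ran from -0.42 to 0.24. The cause of these turns was not tested. With the replicate block 0 members were called and the median was -0.81, as without it. Same-numbered tumors correlated between -0.28 and 0.26 in their deviations from the group means, which shows no pairing by number. So few tumors, with vector tumors 3 and 5 apart from their group, could not exclude one. Over all genes, 34 were called, against 0 with the block, 10 without a filter, 1219 with tumor weights, 800 without vector tumors 3 and 5 and the tumor labelled Adamts7 5, and 6 to 655 with 1 tumor left out; 30 of the 34 were lower, against 20 of 30 under median-of-ratios scaling and also under quantile normalization. The counts of 655 and 800 are without the tumor labelled Adamts7 5. Depth is unknown, so zeros carry no limit.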
